A study of Mus musculus with 19 samples.

Results

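Serpins are a family of proteins of 1 shared fold, and the genes described here are 62 rows of a mouse colon RNA-seq table whose symbol is Serpin followed by a clade letter from a to i, a number and at most 1 further letter. The table held 32694 genes in all. Of the 62, 31 reached 10 normalized counts in at least 5 libraries and are described, and 31 lay below that filter. Over all genes 18445 passed it. Mice of 12 weeks of age fell into 3 groups, with 1 library per mouse. The Apc/Tgif tumours were 7 colon tumours, from 3 female and 4 male mice, in which Villin-Cre had removed 1 allele of Apc and both alleles of Tgif1 and of Tgif2, and the labels call these mice Tgif1;Tgif2 null. The Apc tumours were 7 colon tumours, from 3 female and 4 male mice, in which Villin-Cre had removed 1 allele of Apc, labelled Apc heterozygous. The wild-type colon came from 3 female and 2 male mice, and the labels call it normal colon. Villin-Cre acts in intestinal epithelium, so other cells of a tumour keep the genes, and each tumour library is 1 tumour of 1 mouse. Tgif1 and Tgif2 are transcriptional corepressors that bind DNA through a homeodomain and limit transcription by Smad proteins downstream of TGF-beta.

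Most serpins inhibit serine proteases, and some inhibit cysteine proteases. An exposed loop acts as bait, the protease cuts it, and the serpin then changes shape and holds the protease in a covalent complex, so each molecule is used once. Most clade A serpins and those of clades C to I are secreted or pass through the secretory pathway, whereas clade B serpins mostly act inside the cell. Mice carry expanded arrays of Serpina1, Serpina3 and clade B genes where humans have few, and close copies within an array can share reads. A few members, among them Serpinh1, Serpinf1 and Serpinb5, have the fold but do not act as protease inhibitors.

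The Serpina3 cluster holds 11 genes within 301.6 kb of chromosome 12 (chr12:104112724-104414329, GRCm38, GENCODE), of which 7 passed the filter. The promoters of 5 of these are shown, the others having no promoter entry. The order of listing was chosen after the values were seen. For Serpina3n and Serpina3c the effect of Apc/Tgif over Apc tumours differed between the sexes. Serpina3f, Serpina3g and Serpina3i were higher in both tumour types than in wild-type colon. Between the tumours Serpina3f and Serpina3i were lower in Apc/Tgif tumours, and Serpina3g did not differ by the threshold. Each sequence holds 250 bases before and 50 bases after the RefSeq start, on the strand of the gene (RefSeq, build GRCm38.p6). They lie at chr12:104406458-104406757 for Serpina3n (plus strand), chr12:104153823-104154122 for Serpina3c (minus), chr12:104214294-104214593 for Serpina3f (plus), chr12:104235897-104236196 for Serpina3g (plus) and chr12:104262872-104263171 for Serpina3i (plus). Capitals mark 3 motifs that were searched on both strands: the interferon-gamma activated site TTCNNNGAA, the TATA box TATAAA and the Smad element CAGACA.
Serpina3n: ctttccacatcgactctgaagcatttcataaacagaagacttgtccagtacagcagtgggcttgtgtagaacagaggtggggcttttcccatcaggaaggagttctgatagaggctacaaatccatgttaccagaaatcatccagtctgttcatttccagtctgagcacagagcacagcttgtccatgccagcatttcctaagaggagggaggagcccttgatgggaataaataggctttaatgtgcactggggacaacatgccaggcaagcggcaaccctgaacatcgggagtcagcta
Serpina3c: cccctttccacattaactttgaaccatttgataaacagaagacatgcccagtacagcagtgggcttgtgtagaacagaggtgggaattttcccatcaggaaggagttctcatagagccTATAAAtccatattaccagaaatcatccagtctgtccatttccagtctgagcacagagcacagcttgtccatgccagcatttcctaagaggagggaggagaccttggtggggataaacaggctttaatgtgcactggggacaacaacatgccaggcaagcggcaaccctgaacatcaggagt
Serpina3f: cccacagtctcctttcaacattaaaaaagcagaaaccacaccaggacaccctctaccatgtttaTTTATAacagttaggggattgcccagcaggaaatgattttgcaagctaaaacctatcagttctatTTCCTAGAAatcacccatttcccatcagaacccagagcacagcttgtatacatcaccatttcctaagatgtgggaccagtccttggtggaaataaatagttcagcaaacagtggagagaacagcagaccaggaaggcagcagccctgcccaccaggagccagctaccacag
Serpina3g: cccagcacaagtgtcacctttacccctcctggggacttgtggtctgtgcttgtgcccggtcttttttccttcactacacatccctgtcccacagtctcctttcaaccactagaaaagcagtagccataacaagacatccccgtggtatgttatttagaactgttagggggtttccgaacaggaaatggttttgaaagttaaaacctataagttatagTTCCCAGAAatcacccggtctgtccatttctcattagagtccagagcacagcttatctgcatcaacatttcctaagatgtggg
Serpina3i: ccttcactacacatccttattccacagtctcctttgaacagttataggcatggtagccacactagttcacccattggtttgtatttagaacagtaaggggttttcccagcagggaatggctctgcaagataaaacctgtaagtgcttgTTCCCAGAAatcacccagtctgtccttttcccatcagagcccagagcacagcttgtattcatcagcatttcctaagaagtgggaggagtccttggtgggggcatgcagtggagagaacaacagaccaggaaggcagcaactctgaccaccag

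The promoters of Serpina3n and Serpina3c were identical at 89.9% of aligned positions, against 38.0% to 67.7% for the other 9 pairs of these genes and a median of 45.3% over 300 pairs of members. Of these 9, the pairs with Serpina3g gave 38.0% to 50.4% and the rest 61.7% to 67.7%. The Serpina3g window ended at base 104236196, before the GENCODE start of that gene at 104236245. It was thus shifted upstream, and its identities may be understated. The letters TTCNNNGAA were present in the windows of Serpina3f, Serpina3g and Serpina3i. In each of them the letters ATCACCC follow directly, so these close copies share the stretch and are not separate cases in the count. Over the 25 members with a promoter entry, 5 (20%) held them, the others being Serpinb2 and Serpinb6a, and 8.30% of 32851 mouse promoters of this length did. TATAAA was present in 4 of 25 members (16%), against 13.6% of all promoters, and CAGACA in 4 of 25 (16%), against 21.0%. The motif TGTCA, the core that Tgif proteins bind, was present in 11 of 25 (44%), against 45.4%. CTTTGAT, the core of the Tcf site, was present in 2 of 25 (8%), against 3.73%. TGTCA shares its first 4 letters with the reverse complement of CAGACA. A match is a description of the letters and not a bound site. The members with no promoter entry were Serping1, Serpina10, Serpina3h, Serpina3m, Serpina9 and Serpinb1a.

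Each library summed to 34417808 to 44732717 normalized counts. Tgif1 levels separated the groups as labelled, with a median of 316 normalized counts in Apc/Tgif tumours, 3769 in Apc tumours and 894 in wild-type colon. For Tgif2 the label and the level disagreed, since the medians were 2696, 681 and 158 in the same order. Apc had medians of 7305, 6220.0 and 5779, with overlapping ranges, so its level did not show the loss of 1 allele. The deleted exons are unknown here, so a sum over a gene cannot check its deletion, and the libraries are named as labelled. Levels of Xist and of Y-linked genes matched the labelled sex in all 19 libraries. Of the marker lists, all 10 smooth muscle genes and all 9 B cell genes were lower in both tumour types than in wild-type colon, as were all 8 absorptive colonocyte genes and, of 8 goblet cell genes, 8 in Apc/Tgif and 6 in Apc tumours. In Apc/Tgif over Apc tumours 5 absorptive and 7 goblet cell genes were lower, and none of the smooth muscle or B cell genes passed. The 6 distal colon markers summed to 8022 to 24751 in Apc/Tgif tumours, 1837 to 23442 in Apc tumours and 21285 to 25635 in wild-type colon. Of these markers 1 was lower in Apc/Tgif tumours and 2 in Apc tumours than in wild-type colon. In bulk tissue fewer cells of a type and less RNA per cell cannot be told apart. Scaling every library to the same total shifted the median log2 fold change of all genes against wild-type colon to 0.15 for Apc/Tgif tumours and 0.19 for Apc tumours. The split of all calls became 5810 higher and 3843 lower for the first, 6160 and 3417 for the second, and 1080 and 1849 for Apc/Tgif over Apc tumours.

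Differences were tested with limma on log2(normalized count + 1), with terms for group and sex, and adjusted p-values run over all 18445 genes with a threshold of 0.05. Fold changes on this scale understate the change of low genes. Serpin genes were mostly lower in Apc/Tgif than in Apc tumours where they differed: 8 of 31 were lower (25.8%), against 8.76% of all genes tested, and 1 of 31, Serpinb11, was higher, against 7.88%. Of these 9 calls, 2 passed in every alternative run of the fit. The 8 lower members include Serpina3f, Serpina3h and Serpina3i, close copies that share some reads, and Serpinb1c and Serpinb2, which had low counts. The median log2 fold change was -0.36 over the members and -0.01 over all genes. In Apc tumours over wild-type colon 12 of 31 were higher (38.7%), against 23.9% of all genes, and 5 were lower (16.1%), against 25.2%. Quantile normalization gave 13 higher and 3 lower there. Set against the same wild-type libraries, Apc/Tgif tumours had 11 members higher (35.5%), against 24.8%, and 7 were lower (22.6%), against 25.5%. The member medians of these last comparisons were 0.69 for Apc/Tgif tumours and 0.63 for Apc tumours on the log2 scale, with all genes at 0.00 and -0.01. Both share the 5 wild-type libraries. Groups did not overlap in 2 of 31 members for Apc/Tgif over Apc tumours (4.07% of all genes), in 9 for Apc tumours and wild-type colon (29.4%, against 29.0% of members) and in 6 for Apc/Tgif tumours over wild-type colon (30.6%, against 19.4% of members).

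**Figure D1:**
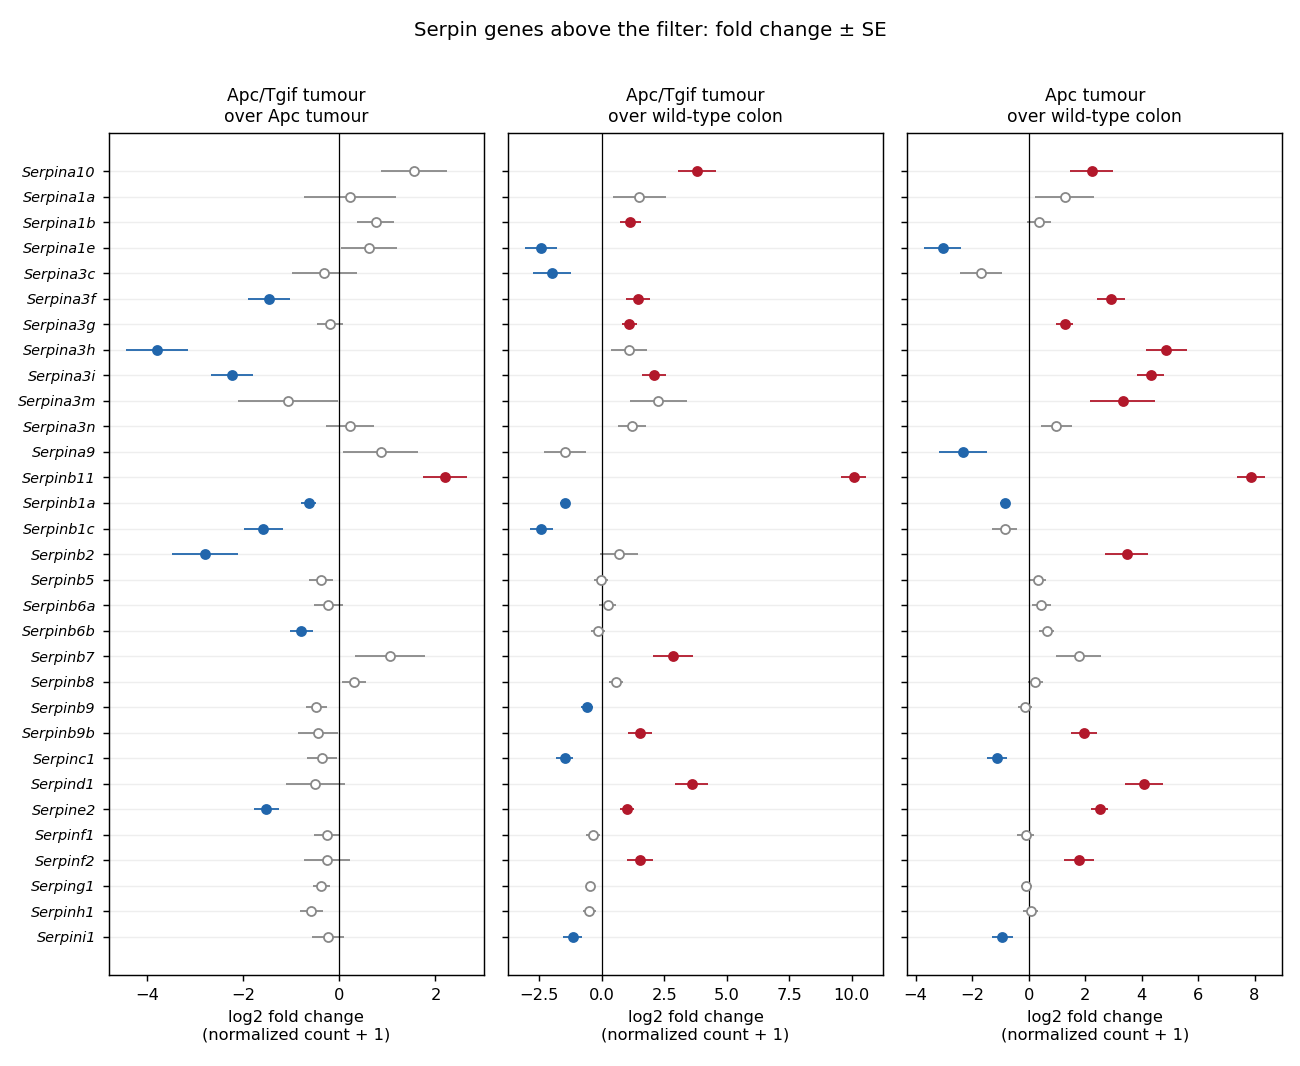
Log2 fold change ± SE of the 31 Serpin genes above the filter in the 3 comparisons, on the log2(normalized count + 1) scale; red points passed the threshold as higher, blue points as lower, and open points did not pass. The horizontal scales differ between panels. Serpinb11 lies at 2.20, 10.07 and 7.88 from left to right, and Serpine2 lies below 0 on the left and above 0 in the other panels.

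Inhibitors of the plasminogen system, which dissolves fibrin and clears matrix through plasmin, were among the members that differed between the tumour types. Serpine2, protease nexin-1, inhibits thrombin and urokinase at cell surfaces (chr1:79794197-79861180, minus strand). Its lowest, median and highest values were 338, 815 and 1236 in Apc/Tgif tumours and 1369.7, 2031 and 3747 in Apc tumours. The wild-type values were 416, 244, 505, 468 and 317. The 2 tumour groups did not overlap, nor did Apc tumours and wild-type colon. The log2 fold change was -1.51 (SE 0.27, adjusted p = 0.000725) for Apc/Tgif over Apc tumours, 2.52 (SE 0.30, adjusted p = 1.13e-06) for Apc tumours and 1.00 (SE 0.30, adjusted p = 0.00796) for Apc/Tgif tumours, the last 2 over wild-type colon. The difference between the tumours was of the same direction in each sex, with -1.13 in females and -1.80 in males. In males alone the difference of Apc/Tgif tumours from wild-type colon was 0.70 and did not pass.

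Serpinb2, PAI-2, is a clade B inhibitor of urokinase made by stimulated monocytes and keratinocytes. It ranged from 0 to 10.4 normalized counts in Apc/Tgif tumours, 1.08 to 73.3 in Apc tumours and 0 to 1.74 in wild-type colon. It was lower in Apc/Tgif than in Apc tumours (log2 fold change -2.79, adjusted p = 0.00838) and higher in Apc tumours than in wild-type colon (3.48, adjusted p = 0.000865), while 9.0% of its possible 75-base reads also occur in Serpinb10. Neither call passed in males alone, and the difference between the tumours was -4.42 in females and -1.56 in males. Serpinf2, alpha-2-antiplasmin, the plasma inhibitor of plasmin, ranged from 10.7 to 47.0 in Apc/Tgif tumours, 5.68 to 112 in Apc tumours and 7.57 to 12.9 in wild-type colon, and was higher in both tumour types than in wild-type colon (1.53 and 1.79). With the mean level of distal colon markers as a covariate neither Serpinf2 call passed (0.78, adjusted p = 0.106, and 0.77, adjusted p = 0.143), nor did either in males alone. In females alone the Serpinf2 call in Apc/Tgif tumours did not pass. The genes these inhibitors act on were followed in a list of the plasminogen system, of which 11 members were tested. In Apc/Tgif over Apc tumours 2 were higher and 3 lower, and the lower ones included Plau, the urokinase itself, with 1429.9 ± 314 against 3427 ± 1024 normalized counts (log2 fold change -1.23, adjusted p = 0.000288). In Apc tumours over wild-type colon 6 were higher and 3 lower, with Mmp9, a matrix metalloprotease, at 3359.9 ± 1351 against 62.2 ± 39.9 (5.85, adjusted p = 2.18e-10). Apc/Tgif tumours against wild-type colon again had 6 higher and 3 lower, with Plaur, the urokinase receptor, at 1222 ± 587 against 198 ± 52.3. A list of TGF-beta and Smad targets had 3 genes higher and 1 lower of 21 in Apc/Tgif over Apc tumours, with a median log2 fold change of 0.02, and 12 higher and 2 lower in Apc tumours over wild-type colon. Fibroblast markers, which cover a cell type that makes Serpine2, had 3 of 10 lower and none higher in Apc/Tgif over Apc tumours, and their summed level ranged from 39827 to 78343 in Apc/Tgif tumours, 66665 to 133784 in Apc tumours and 45293 to 72485 in wild-type colon, with no marker at 0. Their part in the results for Serpine2 was not tested.

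**Figure D2:**
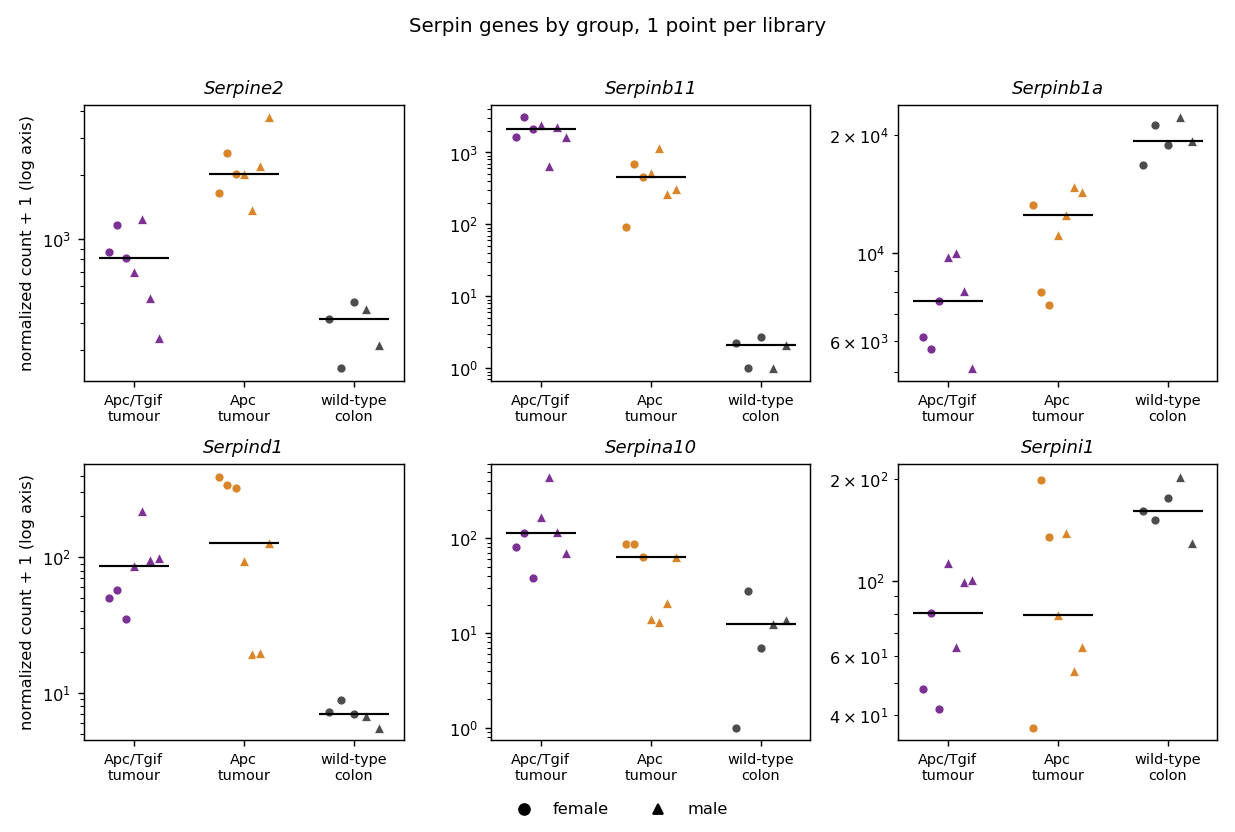
Normalized count + 1 (log axis, with a range of its own in each panel) of 6 Serpin genes in Apc/Tgif tumours, Apc tumours and wild-type colon, with 1 point per library, circles for females and triangles for males, and a line at the group median. Serpine2 separates Apc/Tgif from Apc tumours, Serpinb1a puts every tumour below every wild-type colon, and Serpinb11 is at most 1.74 in wild-type colon.

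Within the Serpina3 cluster the genes did not respond as 1 block. Serpina3f, Serpina3h and Serpina3i, which lie close together, were high in Apc tumours and lower in Apc/Tgif tumours, Serpina3g among them was higher in both tumour types than in wild-type colon, and Serpina3m, Serpina3n and Serpina3c split by sex. Serpina3h, a transcribed pseudogene in GENCODE and RefSeq, had 5.34, 8.94 and 15.6 normalized counts as the lowest, median and highest value in Apc/Tgif tumours and 7.43, 198 and 687 in Apc tumours. Its wild-type values were 2.52, 6.85, 5.22, 2.87 and 3.42. All but 1 of the Apc tumours lay above every Apc/Tgif tumour, the exception being Apc library 1, a female. The log2 fold change was -3.79 (SE 0.65, adjusted p = 0.00054) for Apc/Tgif over Apc tumours, 4.88 (SE 0.71, adjusted p = 1.52e-05) for Apc tumours and 1.09 (SE 0.71, adjusted p = 0.217) for Apc/Tgif tumours, the last 2 over wild-type colon. Serpina3i ranged from 5.67 to 28.2 in Apc/Tgif tumours, 32.7 to 166 in Apc tumours and 0 to 5.70 in wild-type colon. The tumour groups did not overlap, and the log2 fold change was -2.23 (adjusted p = 0.00154) between them, 4.32 (adjusted p = 5.8e-07) for Apc tumours and 2.09 (adjusted p = 0.00122) for Apc/Tgif tumours over wild-type colon.

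Serpina3f had 28.1, 64.5 and 123 normalized counts in Apc/Tgif tumours and 75.6, 123 and 922 in Apc tumours as the lowest, median and highest values, and 30.6, 15.7, 19.4, 26.5 and 27.1 in wild-type colon. The highest value was that of 1 female Apc tumour, and every Apc tumour lay above every wild-type colon. Serpina3f gave log2 fold changes of -1.46 (SE 0.44, adjusted p = 0.0271) for Apc/Tgif over Apc tumours, and 2.92 (adjusted p = 6.12e-05) for Apc tumours and 1.46 (adjusted p = 0.0173) for Apc/Tgif tumours over wild-type colon. The first call was lost without Apc library 3 or 5 or Apc/Tgif library 1 or 7 (-1.42 to -1.31, adjusted p at most 0.0599), and the last without wild-type library 2 (1.27, adjusted p = 0.0504). The first was also lost in females alone and with quantile normalization, and the last passed in neither sex alone. Serpina3g encodes an inhibitor of cysteine cathepsins that stays in the cytosol and nucleus. It had 361, 478 and 800.3 normalized counts in Apc/Tgif tumours and 326, 662 and 1222 in Apc tumours, and 162, 256, 191, 376 and 332 in wild-type colon. The range of the Apc/Tgif tumours lay within that of the Apc tumours, with a log2 fold change of -0.19 (SE 0.27, adjusted p = 0.705), and both were higher than wild-type colon (1.09, adjusted p = 0.00497 for Apc/Tgif tumours, and 1.27, adjusted p = 0.00159 for Apc tumours). In females alone these values were 1.37 and 2.07 and passed, and in males alone they were 0.61 (adjusted p = 0.137) and 0.41 (adjusted p = 0.341). Among cathepsins and legumain, the kind of protease that Serpina3g inhibits, 11 were tested: 1 was lower and none higher in Apc/Tgif over Apc tumours, and 2 were higher and 3 lower in Apc tumours over wild-type colon. Over all genes 8.76% were lower and 7.88% higher in the first comparison, and 23.9% higher and 25.2% lower in the second. These counts were thus near the background. Of 18 interferon-stimulated genes 14 were higher in Apc/Tgif than in Apc tumours and none lower, with a median log2 fold change of 2.14. Compared with wild-type colon, Apc/Tgif tumours had 4 higher and 1 lower (median 0.17), and Apc tumours had none higher and 13 lower (median -1.90). Their summed level was 23228 to 97801.5 over all Apc/Tgif tumours and 8185 to 25390.0 over all Apc tumours, against 12578 to 29828 in the 3 wild-type females and 76523 and 95688 in the 2 wild-type males. The wild-type females thus overlapped the Apc tumours and the wild-type males did not. The part of interferon in the values of these Serpina3 genes was not tested. Reads are shared between these copies: 5.33% of possible 75-base reads of Serpina3f, 7.69% of Serpina3g, 11% of Serpina3h, 6.62% of Serpina3i and 9.65% of Serpina3m also occur elsewhere, so each value may hold some counts of a neighbour.

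**Figure D3:**
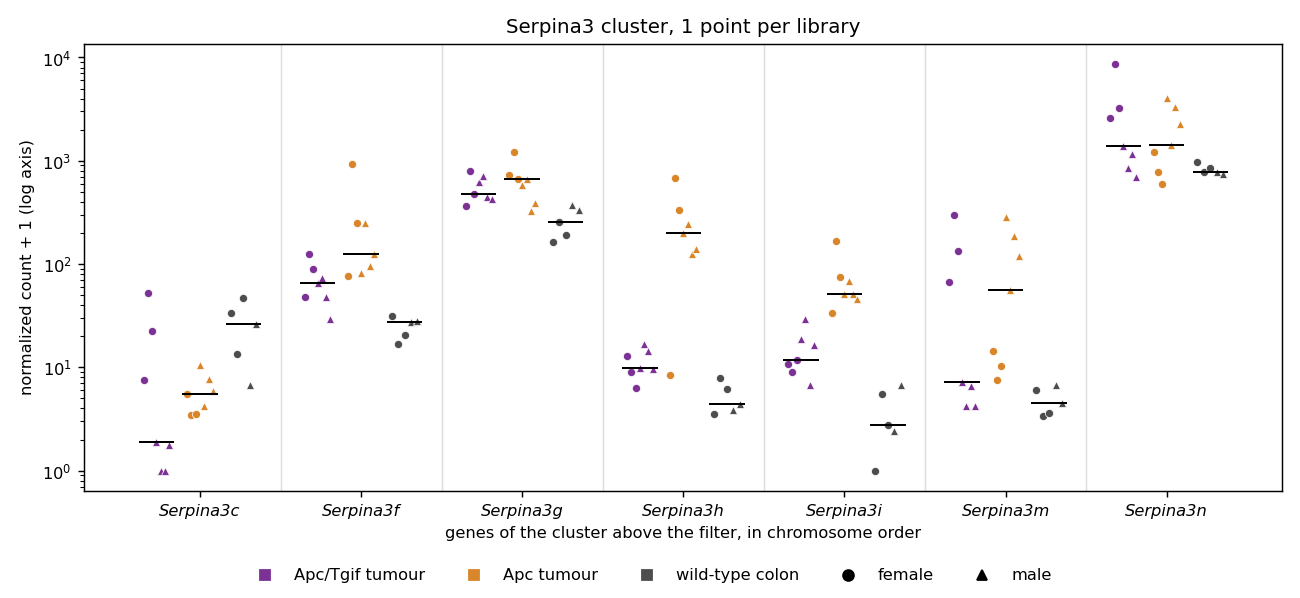
Normalized count + 1 (log axis) of the 7 Serpina3 genes above the filter in chromosome order, with 1 point per library for Apc/Tgif tumours, Apc tumours and wild-type colon from left to right in each gene, circles for females and triangles for males, and a line at the group median. Serpina3h and Serpina3i are high in Apc tumours, and the female and male points of Serpina3m and Serpina3n lie in opposite places in the 2 tumour groups.

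Serpina3n, Serpina3m and Serpina3c, singled out after their values were seen, had opposite sex patterns in the 2 tumour types. Serpina3n, the best studied mouse counterpart of human alpha-1-antichymotrypsin, is an acute-phase inhibitor that acts on granzyme B and on elastases. Its values in Apc/Tgif tumours were 2610, 8592 and 3227 normalized counts in the 3 females and 1396, 855, 1172 and 697 in the 4 males. In Apc tumours they were 1203, 784 and 591 in the 3 females and 4069, 1407, 3343 and 2266 in the 4 males. In wild-type colon they were 973, 779 and 850 in females and 776 and 746 in males. Females were therefore the high tumours of the Apc/Tgif group and the low ones of the Apc group, with no overlap between the sexes in either. The log2 fold change of Apc/Tgif over Apc tumours was 2.34 in females and -1.37 in males, a difference of -3.71 for males minus females (SE 0.55, adjusted p = 0.000497).

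Serpina3m followed the same order, with 65.8, 296 and 134 normalized counts in females and 6.21, 3.21, 5.62 and 3.20 in males of the Apc/Tgif group. In the Apc group it had 13.3, 6.54 and 9.31 in females and 286, 55.0, 184 and 119 in males. The wild-type values lay between 2.35 and 5.70, so the high tumours stood far above wild-type colon and the low ones near it. Over both sexes Serpina3m was higher in Apc tumours than in wild-type colon, with no overlap (log2 fold change 3.33, adjusted p = 0.0211). That call did not pass in females alone. In Apc/Tgif tumours Serpina3m did not pass against wild-type colon (2.26, adjusted p = 0.108). The log2 fold change of Apc/Tgif over Apc tumours was 3.74 in females and -4.67 in males, and the difference was -8.42 (SE 0.75, adjusted p = 5.00e-05). Serpina3c had 6.52, 51.0 and 21.4 in females and 0.89, 0, 0 and 0.78 in males of the Apc/Tgif group, and 2.47 to 4.46 in females and 3.25 to 9.49 in males of the Apc group. Its wild-type values of 5.75 to 46.1 lay mostly above the tumours, unlike those of Serpina3m, and its sex difference between the tumours was -4.64 (SE 0.90, adjusted p = 0.00231). Over both sexes Serpina3c was lower in Apc/Tgif tumours than in wild-type colon (log2 fold change -2.0, adjusted p = 0.0329), a call that was lost without wild-type library 1, 3 or 5 or any 1 of the Apc/Tgif males, libraries 4 to 7 (-1.97 to -1.63, adjusted p at most 0.114).

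Counted over the family, 8 of 31 members (25.8%) differed between the sexes in the effect of Apc/Tgif over Apc tumours, against 23.6% of all genes, so the share was near the background. In Apc tumours over wild-type colon this was 0 of 31, against 0.0108% of all genes. At an unadjusted p under 0.05 it was 7 of 31 there (22.6%, against 11.6% of all genes), 11 (35.5%, against 37.2%) for Apc/Tgif over Apc tumours and 7 (22.6%, against 23.4%) for Apc/Tgif tumours and wild-type colon. With adjustment, 1 of 31 differed in the last of these, Serpina3m (3.2%, against 3.4%), with a difference of -5.09 that did not pass without wild-type library 4 (-4.80, adjusted p = 0.0703). The other 5 members with such a difference between the tumours ran the other way to the Serpina3 genes: Serpind1, Serpinh1, Serpinb9, Serpinb5 and Serpinb6b were higher in females than in males among Apc tumours by their medians and had positive differences, from 1.15 for Serpinb6b to 4.23 for Serpind1. The Serpinb6b call was lost without any 1 of 13 libraries (difference 0.95 to 1.15, adjusted p at most 0.132), which included 3 of wild-type colon, 5 Apc tumours and 5 Apc/Tgif tumours. Serpinh1 is the collagen chaperone HSP47. It had 1873, 2744 and 5360 normalized counts as the lowest, median and highest value in Apc/Tgif tumours and 2430.0, 3955 and 6310 in Apc tumours, and 3708, 2777, 5518, 4406 and 3640 in wild-type colon. The 3 Apc/Tgif females, at 1873 to 2140, lay below all other libraries, and the 3 Apc females, at 5224 to 6310, were above every male of their group. Over both sexes Serpinh1 did not pass the threshold in any comparison (log2 fold changes -0.58, 0.07 and -0.50 for Apc/Tgif over Apc tumours, Apc tumours and Apc/Tgif tumours over wild-type colon), and its sex difference was 1.67 (SE 0.32, adjusted p = 0.00242). Of the collagens and collagen-folding genes that Serpinh1 serves, 20 were tested, and 10 were lower and none higher in Apc/Tgif over Apc tumours, with a median log2 fold change of -0.54. In Apc tumours over wild-type colon 12 were higher and none lower. The labels name no batches, and the part of batches in the sex pattern was not tested.

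**Figure D4:**
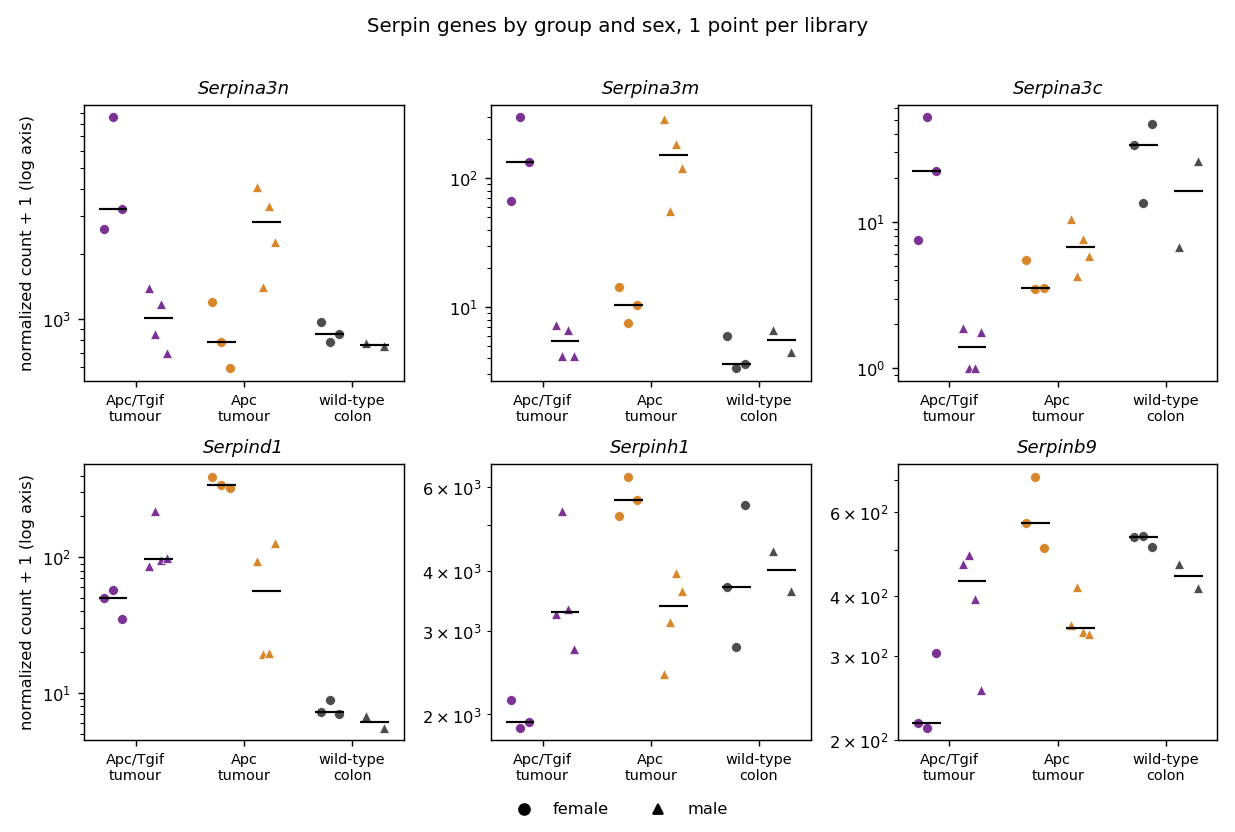
Normalized count + 1 (log axis, with a range of its own in each panel) of 6 Serpin genes by group and sex, with 1 point per library, circles for females, triangles for males, and a line at the median of each group and sex. Serpina3n and Serpina3m are high in Apc/Tgif females and Apc males, and Serpind1 and Serpinh1 are high in Apc females.

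The serpins of the coagulation cascade moved apart in the tumours. Serpind1, heparin cofactor II, an inhibitor of thrombin, had 34.2, 85.8 and 218 normalized counts in Apc/Tgif tumours and 18.4, 127 and 390.2 in Apc tumours as the lowest, median and highest values, and 6.31, 7.99, 6.09, 5.75 and 4.56 in wild-type colon. Every tumour lay above every wild-type colon, with log2 fold changes of 3.59 (adjusted p = 0.000178) for Apc/Tgif tumours and 4.08 (adjusted p = 5.48e-05) for Apc tumours. Between the tumours the effect was -2.91 in females and 1.32 in males, with a difference of 4.23 (SE 0.77, adjusted p = 0.00171). Serpina10, the protein Z-dependent inhibitor of factor Xa, had 36.9, 114 and 443 normalized counts in Apc/Tgif tumours and 12.1, 62.1 and 86.5 in Apc tumours, and 0, 27.0, 6.01, 11.3 and 12.7 in wild-type colon. It was higher in both tumour types than in wild-type colon (3.79, adjusted p = 0.000358 for Apc/Tgif tumours, and 2.24, adjusted p = 0.0199 for Apc tumours). The second of these calls was lost without wild-type library 1, where Serpina10 was at 0 (1.52, adjusted p = 0.0677). The same call was lost in males alone (0.76, against 3.76 in females) and with the distal colon markers as a covariate. Serpinc1, antithrombin, ranged from 5.37 to 15.1 in Apc/Tgif tumours, 8.66 to 17.3 in Apc tumours and 11.4 to 56.0 in wild-type colon and was lower in both (-1.48 and -1.12), the second call being lost without wild-type library 4 (-0.89, adjusted p = 0.0523). Neither Serpinc1 call passed in females alone, and that in Apc tumours was also lost with quantile normalization. In Apc tumours the difference was -0.24 in females and -2.09 in males. These inhibitors are made mainly by the liver in the healthy animal. Of 10 hepatocyte markers only 2 passed the filter, Alb and Cyp2e1. Of these Alb was higher and Cyp2e1 lower in Apc tumours than in wild-type colon, the fibrinogen gene Fgg and Apcs were at 0 in every library of all groups, and the summed level ranged from 197 to 1242 in Apc/Tgif tumours, 72.3 to 9776 in Apc tumours and 143 to 815 in wild-type colon. Of 14 tested genes of coagulation and the contact phase, 8 were higher and 1 lower in Apc/Tgif tumours than in wild-type colon, and 7 were higher and 1 lower in Apc tumours. They included F3, tissue factor, at 7795 ± 2028 in Apc/Tgif tumours and 7625 ± 1521 in Apc tumours against 2063 ± 667 in wild-type colon. Between the tumour types 1 was higher, Tfpi, the tissue factor pathway inhibitor (log2 fold change 1.68), and 1 lower, Tfpi2 (-1.33).

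Serpinb11 showed the widest contrast with wild-type colon of all members (chr1:107361198-107380475, plus strand). This clade B gene had 647, 2127 and 3086 normalized counts as the lowest, median and highest value in Apc/Tgif tumours and 89.9, 457 and 1164 in Apc tumours. In wild-type colon its values were 1.26, 0, 1.74, 0 and 1.14. Every tumour stood above every wild-type colon, and the tumour groups overlapped only through Apc/Tgif library 5, at 647, and the highest Apc tumours. The mean was 1962 ± 765 in Apc/Tgif tumours (SD, n = 7), 498 ± 351 in Apc tumours (n = 7) and 0.83 ± 0.79 in wild-type colon (n = 5). The log2 fold change was 2.20 (SE 0.46, adjusted p = 0.00273) for Apc/Tgif over Apc tumours, 10.07 (adjusted p = 1.48e-11) for Apc/Tgif tumours and 7.88 (adjusted p = 5.98e-10) for Apc tumours over wild-type colon. In males alone the difference between the tumours was 1.71 and did not pass (adjusted p = 0.0519). Other genes of the chromosome 1 array of clade B (12 members, of which 5 passed) behaved differently. Serpinb7, which inhibits kallikreins in skin, ranged from 0 to 36.9 in Apc/Tgif tumours, 0 to 16.5 in Apc tumours and 0 to 2.28 in wild-type colon, and was higher in Apc/Tgif tumours than in wild-type colon (2.84, adjusted p = 0.00579). Serpinb5, maspin, ranged from 1258 to 5536 in Apc/Tgif tumours, 2649.9 to 4717 in Apc tumours and 2541 to 3340.5 in wild-type colon, and did not pass in any comparison. Serpinb8, an inhibitor of furin, did not pass either, with group means of 98.7, 80.2 and 65.4 in the same order. Clade B genes of this array are known from squamous epithelium. Of 11 squamous markers tested, 7 were higher and none lower in each tumour type than in wild-type colon. Apc/Tgif tumours had 2 higher and 2 lower than Apc tumours, and the summed level of 18 ranged from 10591 to 15412 in Apc/Tgif tumours, 3805 to 11295 in Apc tumours and 2176 to 2822 in wild-type colon. Most of this sum was Pkp1, a desmosomal plaque protein, at 10581 ± 1466 in Apc/Tgif tumours and 3559 ± 395 in Apc tumours. The median log2 fold change of the markers between the tumours was -0.19, and Krt6a, a keratin, was lower (-3.28). Their part in the results for Serpinb11 and Serpinb7 was not tested.

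The serpins that protect cells against neutrophil and lymphocyte proteases included Serpinb1a, which was lower in both tumour types. Serpinb1a inhibits neutrophil elastase, cathepsin G and proteinase 3 (chr13:32842092-32851185, minus strand). It had 5107, 7552 and 10007 normalized counts as the lowest, median and highest value in Apc/Tgif tumours and 7399, 12540.5 and 14780 in Apc tumours. In wild-type colon it had 16807, 21144, 18892, 22162 and 19246. Every wild-type colon lay above every tumour, and the tumour groups overlapped. The log2 fold change was -0.63 (SE 0.16, adjusted p = 0.00817) for Apc/Tgif over Apc tumours, -0.85 (SE 0.17, adjusted p = 0.000427) for Apc tumours and -1.49 (SE 0.17, adjusted p = 6.79e-07) for Apc/Tgif tumours over wild-type colon. The difference between the tumours did not pass in females alone (-0.52, adjusted p = 0.103). That of Apc tumours from wild-type colon did not pass in males alone (-0.66). Serpinb1c, its neighbour on chromosome 13, ranged from 0 to 4.03 in Apc/Tgif tumours, 2.11 to 12.3 in Apc tumours and 8.70 to 14.8 in wild-type colon and was lower in Apc/Tgif tumours than in Apc tumours (-1.58) and wild-type colon (-2.42). Of 10 tested neutrophil markers 9 were higher and 1 lower in each tumour type than in wild-type colon, and 3 were lower and none higher in Apc/Tgif than in Apc tumours. The summed level of all 11 markers ranged from 2480 to 17409 in Apc/Tgif tumours, 8970 to 19442.5 in Apc tumours and 4245 to 9337 in wild-type colon. Its medians were 4002, 10356 and 8554 in this order, so the sum was not higher in Apc/Tgif tumours than in wild-type colon. Ly6g, a neutrophil surface protein, stood at 668 ± 372 in Apc/Tgif tumours and 2659 ± 1527 in Apc tumours. None of the 4 neutrophil serine protease genes, Elane, Prtn3, Ctsg and Prss57, passed the filter, and their summed level was 2.04 to 18.4 in Apc/Tgif tumours, 7.10 to 23.6 in Apc tumours and 3.52 to 11.9 in wild-type colon. Of 9 tested mast cell protease genes 4 were higher and 1 lower in Apc/Tgif than in Apc tumours, while 7 higher and 1 lower set Apc/Tgif tumours apart from wild-type colon, and 7 higher and 2 lower set Apc tumours apart from it. The absorptive colonocyte markers, epithelial genes that were lower in the same comparisons as Serpinb1a, summed to 39266 to 84191 in Apc/Tgif tumours, 49286 to 154183 in Apc tumours and 309032 to 372899 in wild-type colon, with none at 0. The goblet cell markers summed to 14559 to 66083, 61295 to 263857 and 456984 to 841937 in the same order. The part of these cells in the values of Serpinb1a was not tested.

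Serpinb9 inhibits granzyme B. It had 211, 303 and 488 normalized counts as the lowest, median and highest value in Apc/Tgif tumours and 331, 418 and 710.2 in Apc tumours, and 530, 534, 506, 467 and 415 in wild-type colon. It was lower in Apc/Tgif tumours than in wild-type colon (log2 fold change -0.61, SE 0.24, adjusted p = 0.0402), a call that was lost without wild-type library 1, 2, 3 or 4 or Apc/Tgif library 1, 2, 3 or 7 (-0.62 to -0.48, adjusted p at most 0.0994). Its sex difference between the tumours was 1.41 (SE 0.30, adjusted p = 0.00378), with -1.29 in females and 0.12 in males. Serpinb9b, a close copy in the same array, ranged from 2.34 to 36.3 in Apc/Tgif tumours, 5.68 to 25.6 in Apc tumours and 1.26 to 5.71 in wild-type colon and was higher in both tumour types (1.52 and 1.97). Its counts were low, with a median of 7.61 in Apc/Tgif tumours. The call in Apc/Tgif tumours passed in neither sex alone, and that in Apc tumours did not pass in males alone. Of 5 tested granzyme and perforin genes, 1 was lower and none higher in Apc/Tgif than in Apc tumours, 1 was higher in Apc/Tgif tumours than in wild-type colon, and 2 were higher in Apc tumours. Gzmb, the granzyme that Serpinb9 inhibits, averaged 67.3 ± 33.8 in Apc/Tgif tumours and 104.0 ± 58.9 in Apc tumours, against 20.01 ± 18.7 in wild-type colon. Serpinb6b had 83.1, 126 and 171 normalized counts in Apc/Tgif tumours and 124, 200.1 and 349 in Apc tumours, and 141, 156, 173, 134 and 88.8 in wild-type colon. It was lower in Apc/Tgif than in Apc tumours (-0.79, adjusted p = 0.0282), which was lost without Apc library 2, 3 or 4 or Apc/Tgif library 1, 3 or 7 (-0.77 to -0.67, adjusted p at most 0.0662). Serpinb6a, an inhibitor of cathepsin G, ranged from 6895 to 9827 in Apc/Tgif tumours, 6850.1 to 12782 in Apc tumours and 1653 to 10756 in wild-type colon, and did not pass in any comparison. Its lowest wild-type value came from library 1, and the other 4 wild-type values began at 9149.

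Among the alpha-1-antitrypsin genes, inhibitors of neutrophil elastase, the copies differed in direction and share many reads. Serpina1e ranged from 0 to 17.7 in Apc/Tgif tumours, 0.81 to 8.18 in Apc tumours and 7.57 to 54.6 in wild-type colon and was lower in both tumour types (log2 fold changes -2.43 and -3.05). Serpina1b ranged from 19.8 to 108 in Apc/Tgif tumours, 23.2 to 37.9 in Apc tumours and 5.07 to 32.0 in wild-type colon, and was higher in Apc/Tgif tumours than in wild-type colon (1.14, adjusted p = 0.0335), a call that was lost without wild-type library 1, where the log2 fold change was 0.70 (adjusted p = 0.113), or without Apc/Tgif library 2 or 5 (adjusted p at least 0.0627). Serpina1a, at 0 to 45.2 over all libraries, did not pass, and 49.3% of its possible 75-base reads occur elsewhere, mostly in Serpina1c, with 19% for Serpina1b and 19.7% for Serpina1e. Their separate values are therefore uncertain.

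Serpini1, known from neurons, was lower in both tumour types than in wild-type colon, and Serpina9, known from B cells, was lower in Apc tumours. Serpina9, a secreted serpin of germinal centre B cells, had 4.03, 49.1 and 162 normalized counts in Apc/Tgif tumours and 0.81, 33.8 and 66.1 in Apc tumours, and 143, 68.5, 164, 87.7 and 112 in wild-type colon. It was lower in Apc tumours than in wild-type colon (log2 fold change -2.34, adjusted p = 0.0289), with no overlap, and the call was lost without wild-type library 1, 3 or 5 or Apc library 4 (-2.33 to -2.12, adjusted p at most 0.0594). In Apc/Tgif tumours Serpina9 overlapped wild-type colon and did not pass (-1.48, adjusted p = 0.158). B cell markers summed to 199 to 423 in Apc/Tgif tumours, 125 to 360.5 in Apc tumours and 963 to 8067 in wild-type colon, with no marker at 0. Serpini1, neuroserpin, a neuronal inhibitor of tissue plasminogen activator, had 40.6, 79.2 and 112 in Apc/Tgif tumours and 35.7, 78.1 and 198 in Apc tumours, and 160.3, 151, 175, 203 and 129 in wild-type colon. It was lower in Apc/Tgif tumours than in wild-type colon, with no overlap (-1.18, adjusted p = 0.0121), and lower in Apc tumours (-0.93, adjusted p = 0.0431), a call that was lost without wild-type library 1, 2, 3 or 4 or Apc library 1, 4, 6 or 7 (-0.94 to -0.69, adjusted p at most 0.112). Enteric neuron and glia markers had 13 of 13 lower in Apc/Tgif tumours than in wild-type colon and 12 lower and 1 higher in Apc tumours, and they summed to 330 to 905 in Apc/Tgif tumours, 980 to 1846 in Apc tumours and 3485 to 6751 in wild-type colon. The part of these cells in the values of Serpina9 and Serpini1 was not tested.

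Serping1 and Serpinf1, the last members above the filter, did not pass in any comparison. Serping1, the C1 inhibitor of classical complement and of plasma kallikrein, ranged from 1536 to 3932 in Apc/Tgif tumours, 2216 to 4497 in Apc tumours and 2667 to 3950.1 in wild-type colon, with log2 fold changes of -0.38, -0.46 and -0.08 for Apc/Tgif over Apc tumours and for Apc/Tgif and Apc tumours over wild-type colon, none of which passed. Among 16 tested complement genes 6 were higher and none lower in Apc/Tgif than in Apc tumours, including C2 (504 ± 273 against 182 ± 55.4). Serpinf1, pigment epithelium-derived factor, averaged 185 ± 62.5 in Apc/Tgif tumours, 222 ± 76.3 in Apc tumours and 245 ± 88.9 in wild-type colon, and did not pass either. Other inhibitors of proteases outside the family split against wild-type colon, with 9 higher and 13 lower of 31 tested in each tumour type, and with 5 lower and none higher in Apc/Tgif than in Apc tumours. Of the 31 Serpin genes below the filter, 4 were at 0 in every library, namely Serpina16, Serpinb3b, Serpinb3c and Serpinb6d. The highest single value of the other 27 ranged from 0.85 for Serpinb9g to 58.7 for Serpinb3a, and 10 or more normalized counts were reached by Serpina1c, Serpina1d, Serpina3a, Serpinb1b, Serpinb3a, Serpinb12 and Serpine3 in fewer than 5 libraries. By clade, 12 of 25 clade A and 11 of 27 clade B genes passed. Summed over the 62 genes, they made up 0.0659% to 0.0992% of the normalized counts of a library in Apc/Tgif tumours, 0.0961% to 0.124% in Apc tumours and 0.0781% to 0.113% in wild-type colon, and all groups overlapped.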

How the data were processed

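Libraries of poly-A RNA were read from 1 end for 75 bases on an Illumina NextSeq 500, per the labels' protocols. The authors deposited 1 table of normalized counts per gene, a signal scaled per library. Salmon, DESeq2 and the builds GRCm38 and mm10 are named in the submitters' processing notes, without versions. Of values under 50, 79.8% to 82.1% were whole multiples of 1 step per library within 0.1 of a step. Reads could not be recovered in whole numbers from this, and the log-scale test named in the design for a normalized table was used. The steps of 0.744 to 1.44 put 10 normalized counts at roughly 10 reads, which limits low values.

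Genes with at least 10 normalized counts in at least 5 libraries were tested with limma 3.58.1 in R 4.3.3 (trend, robust) on log2(value + 1), all 19 libraries in 1 fit with group and sex, two-sided, with Benjamini-Hochberg adjustment over 18445 genes. Sex differences are the effect in males minus that in females. Replicates are separate mice. The fit was also run on simulated data with normal noise drawn separately for each gene and no sex effect. That run cannot check the sex differences or the low counts. Members and gene lists were chosen with earlier results of these data known. The lowest, median and highest tumour values and every wild-type value are given for members called in a comparison with a group mean of at least 100 and for Serpinh1, and values by sex for Serpina3n, Serpina3m and Serpina3c, chosen after their values were seen. From each list at most 2 genes with the smallest p per comparison are named, besides those at 0. Counts of list genes called are to be read beside the shares over all genes tested. These were 7.88% higher and 8.76% lower for Apc/Tgif over Apc tumours. Over wild-type colon they were 24.8% and 25.5% for Apc/Tgif tumours, and 23.9% and 25.2% for Apc tumours. Promoters (RefSeq) were aligned globally with Biopython 1.88. Shared 75-base windows were counted over GENCODE transcripts. The use of strand in counting is unknown here. Protein sequences were not used here. An item that belongs to the family is not reported here, and no count of members holds it.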

Additional observations from a re-analysis of the deposited data

Results flagged for a closer look

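In 7 of 93 pairs of a member and a group, 1 library stood apart from the rest of its group by Dixon's criterion, which chance alone meets in about 1 of 20 groups. Apc/Tgif library 5 gave 3 of these: Serpinb11 was lowest there at 647 normalized counts, with the next tumour at 1616, Serpinb2 was highest at 10.4, with the next at 1.79, and Serpinb7 was at 0, with the next at 9.35. Apc library 1 had the lowest Serpina3h, at 7.43, with the next Apc tumour at 124. Wild-type library 1 gave 2 more: Serpina1b was lowest at 5.07, with the next at 27.3, and Serpinb6a was lowest at 1653, with the next at 9149. Serpinb8 was highest in wild-type library 3 at 97.9, with the next at 60.0.

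The effect of Apc/Tgif over Apc tumours differed between males and females for 8 members by the limma test of the difference. The log2 differences, males minus females, were -8.42 for Serpina3m, -4.64 for Serpina3c and -3.71 for Serpina3n, and 4.23 for Serpind1, 1.67 for Serpinh1, 1.44 for Serpinb5, 1.41 for Serpinb9 and 1.15 for Serpinb6b. For Apc/Tgif tumours over wild-type colon the difference was -5.09 for Serpina3m.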

How the results depend on the processing

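Of 44 called differences of members, 15 passed in every alternative run, and none of the 44 changed direction. Of 49 that were not called, 23 passed under at least 1 alternative and 30 changed sign. Of the 44, 14 did not pass in females only, 21 in males only, 8 with the distal colon score as a covariate and 5 with quantile normalization. The 8 were all differences from wild-type colon. They were Serpina1b, Serpina3c, Serpinb9 and Serpinf2 in Apc/Tgif tumours, and Serpina10, Serpina9, Serpinf2 and Serpini1 in Apc tumours. For Apc/Tgif over Apc tumours, the count of higher members was 1 in the full data, 4 in females only and 2 in males only. For Apc tumours over wild-type colon, the count of lower members was 5 in the full data, 3 with a filter of 50, with quantile normalization, with the distal colon score as a covariate and without wild-type library 1 and Apc/Tgif library 5, 2 in each sex alone, and 3 to 6 when 1 library was left out. For Apc/Tgif tumours over wild-type colon, 11 members were higher in the full data, 7 with a filter of 50 and 5 in males only, 7 were lower in the full data and 3 with a filter of 50, and the count of sex differences was 1, or 0 to 3 when 1 library was left out. The covariate and the removal of both libraries were chosen after seeing the data. Reversed values were all of differences that had not passed. For Apc/Tgif over Apc tumours, Serpina3m was 3.74 in females only, Serpina3n was -1.37 in males only, -0.12 with array quality weights and -0.16 to 0.48 when 1 library was left out, and Serpinh1 was 0.14 in males only. Over wild-type colon, Serpina3m in Apc/Tgif tumours was -0.028 in males only, Serpina3n in Apc tumours was -0.070 in females only, and Serpinh1 in Apc tumours was -0.31 in males only and -0.058 to 0.20 when 1 library was left out. A smaller count in 1 sex comes with fewer samples, and the cause of the other changes was not tested. Replicate numbers follow accession order and pair no samples. No paired analysis was possible because the labels give no replicate numbers shared between groups. Values near 10 normalized counts are limited by depth.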
